A study of Mus musculus with 12 samples.

Results

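The genes described here are the 10 that carry the first steps of T-cell receptor signaling in a CD8 T cell: the receptor-associated chains Cd3e, Cd3d, Cd3g and Cd247, the coreceptor chains Cd8a and Cd8b1, the receptor modulator Cd5, the kinases Lck and Zap70, and the adaptor Lat. They were taken by name from the 32285 genes of the count tables, without use of their values, and all 10 passed the filter on low counts in every comparison. Their UMIs (unique molecular identifiers, each standing for 1 captured RNA molecule) were counted in CD8 T cells of female NOD/ShiLtJ mice aged 10 to 15 wk, a strain that develops autoimmune diabetes. The labels name no engineered allele and no treatment. Each library pooled 10 mice. Cells were sorted as CD45.1+, negative for CD4, B220 and CD11b, and CD8+, and then by binding of the NRP-V7 tetramer, which marks CD8 T cells specific for a peptide of the β-cell antigen IGRP. The 3 groups were islet cells without tetramer binding (islet IGRP-), islet cells with binding (islet IGRP+) and spleen cells with binding (spleen IGRP+), each with 2 libraries, 1 from each of 2 rounds. The 3 libraries of a round came from the same pool of mice. Spleen cells were enriched for CD8 T cells by negative selection before the sort, and islet cells were not. The study's text adds that the spleen cells were sorted as CD44+, a marker of antigen-experienced T cells, while its sort protocol names CD44 among the stains but not in the gate of either tissue. Because the sort itself read surface CD8 and the binding of the receptor to its ligand, the CD8 and CD3 genes are not independent of the gate in any group.

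Of 26818 barcodes, 24117 cells were kept, between 1204 and 8932 in a library, with 5880696 to 40469961 UMIs. The median cell held 2590 to 2764.5 UMIs in the spleen libraries and 3793 to 4216.5 UMIs in the islet libraries, so levels are given as counts per total library UMIs (CPM, scaled to 1000000 UMIs), and shares of cells after each cell was thinned to 1000 UMIs. Any pair of libraries shared 2 to 64 cell barcodes, at most 1.03% of the smaller library. Cells with markers of other cell types were rare (46 of the cells kept), and Cd4 was at or near 0 throughout. RNA of exocrine pancreas was present in the islet libraries, where the 15 exocrine genes summed to 63.9 to 498 CPM, and nearly absent from the spleen libraries, where they summed to 5.62 and 6.51 CPM with 13 of the 15 genes at 0. Leaving out the cells with markers of other cell types changed no call among the 10 genes in the comparisons of groups, and the part of the free exocrine RNA was not tested. In counts summed per library, fewer cells that express a gene and less RNA per cell cannot be told apart.

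The T-cell receptor itself has no signaling tail. CD3ε, CD3δ and CD3γ (from Cd3e, Cd3d and Cd3g) and the ζ chain (from Cd247) assemble with it and carry the tyrosine motifs called ITAMs. CD8, a dimer of the chains encoded by Cd8a and Cd8b1, binds class I MHC and brings the kinase Lck to the receptor. Lck phosphorylates the ITAMs, ZAP-70 docks on them and phosphorylates LAT, and CD5 dampens the response. Naive and recirculating CD8 T cells carry mainly the αβ form of CD8, and activated CD8 T cells are known to lower CD8β relative to CD8α.

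The 10 genes together took 5948 and 5915 CPM in the islet IGRP- libraries of rounds 1 and 2, 7201 and 7323 CPM in the islet IGRP+ libraries, and 7855 and 7979 CPM in the spleen IGRP+ libraries. Both rounds gave this order, and the groups did not overlap. Not every part of the set followed it between islet IGRP+ and spleen IGRP+. Cd3e, Cd3d and Cd3g summed to 4035 and 3913.5 CPM against 3959 and 3820 CPM. Cd8a and Cd8b1 summed to 1244 and 1361 CPM against 1657 and 1787 CPM, and Cd5, Lck, Zap70 and Lat to 1717 and 1882 CPM against 1961 and 2118 CPM. In cells thinned to 1000 UMIs, the mean number of the 10 genes with at least 1 UMI was 3.82 and 3.85 in islet IGRP-, 4.46 and 4.56 in islet IGRP+, and 4.90 and 5.04 in spleen IGRP+. A thinned cell without any UMI of the 10 genes was rare, at 0.126% to 1.37% of a library.

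**Figure D1:**
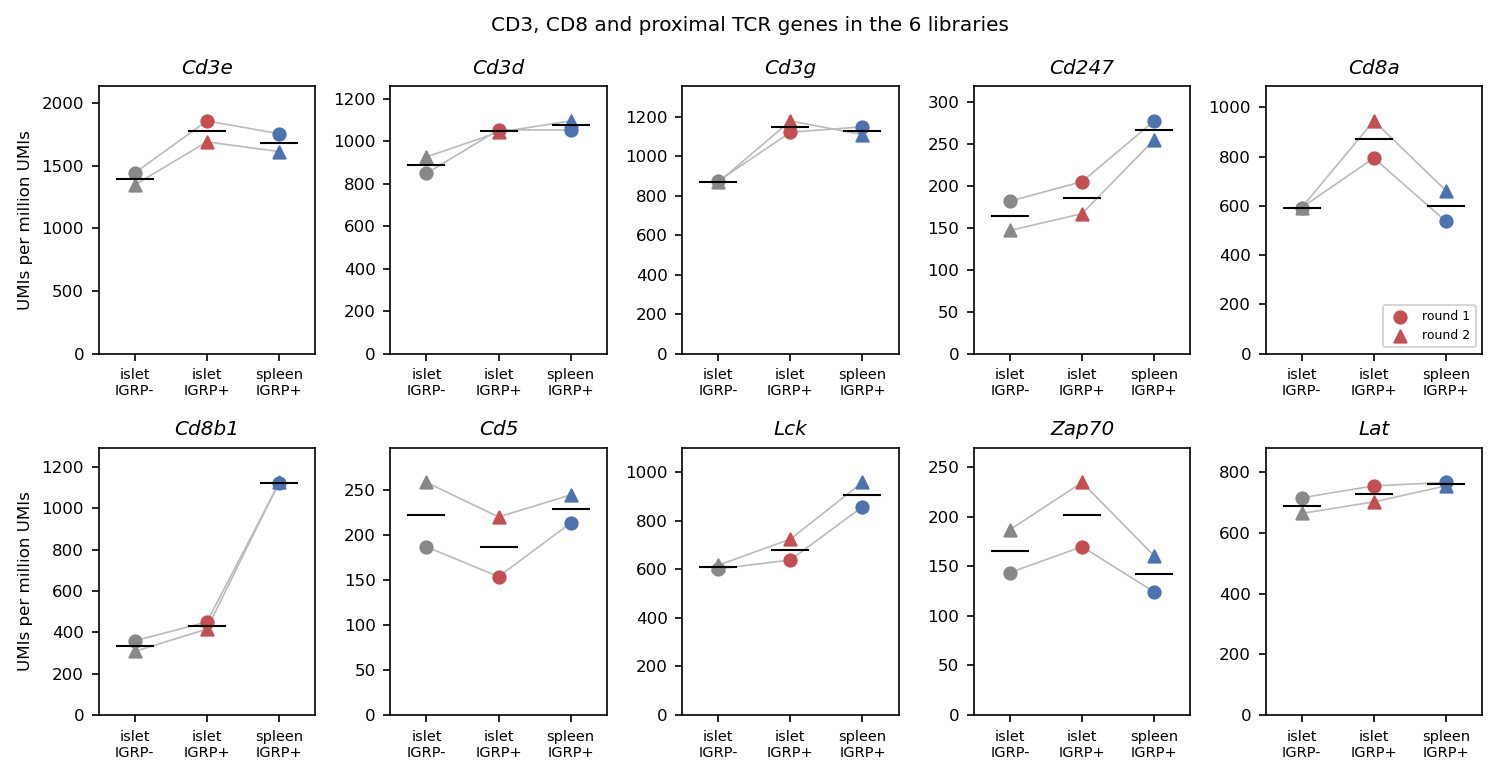
Level of each of the 10 genes (y axis, CPM, from 0) in the 3 groups (x axis). Each point is 1 library, circles are round 1 and triangles round 2, thin lines join the libraries of a round and black bars are group means over 2 libraries. Cd8b1 lies near 1120 CPM in both spleen libraries and at 308 to 450 CPM in the islet libraries, while Cd8a is highest in islet IGRP+ in both rounds.

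Differences between groups were tested with edgeR's quasi-likelihood test on counts summed per library, adjusted by Benjamini-Hochberg over all genes tested, and a gene was called at an adjusted p under 0.05. Fold changes are islet IGRP+ over the other group. Since the libraries of a round share their mice, each call is also given with the round as a block, which changed the number of calls. Between islet IGRP+ and islet IGRP-, none of the 10 genes was called without the block, where 0.151% of the 11277 genes tested were called higher and 1.04% lower. Only Cd8a had an unadjusted p under 0.05 (0.0262), and DESeq2 called 1 of the 10, Cd8a (adjusted p = 0.00413), against 5.09% of all genes in either direction. With the block, 3 were called higher (Cd3g, Cd8a and Cd8b1) and 0 lower, against 14.4% higher and 16.1% lower of all genes. Between islet IGRP+ and spleen IGRP+, Zap70 was called higher and Cd8b1 lower without the block, against 13.7% and 12.9% of all genes. With the block, 2 were higher (Cd8a and Zap70) and 3 lower (Cd247, Cd8b1 and Lck), against 28% and 27.1% of all genes. DESeq2 called 3 of the 10 in this comparison, Cd8a, Cd8b1 and Zap70, against 29.5% of all genes. The shares called among the 10 are near those of all genes in the comparison with the spleen. Their median log2 fold change was 0.26 against islet IGRP- and 0.05 against the spleen, beside -0.01 and -0.03 over all genes tested.

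**Figure D2:**
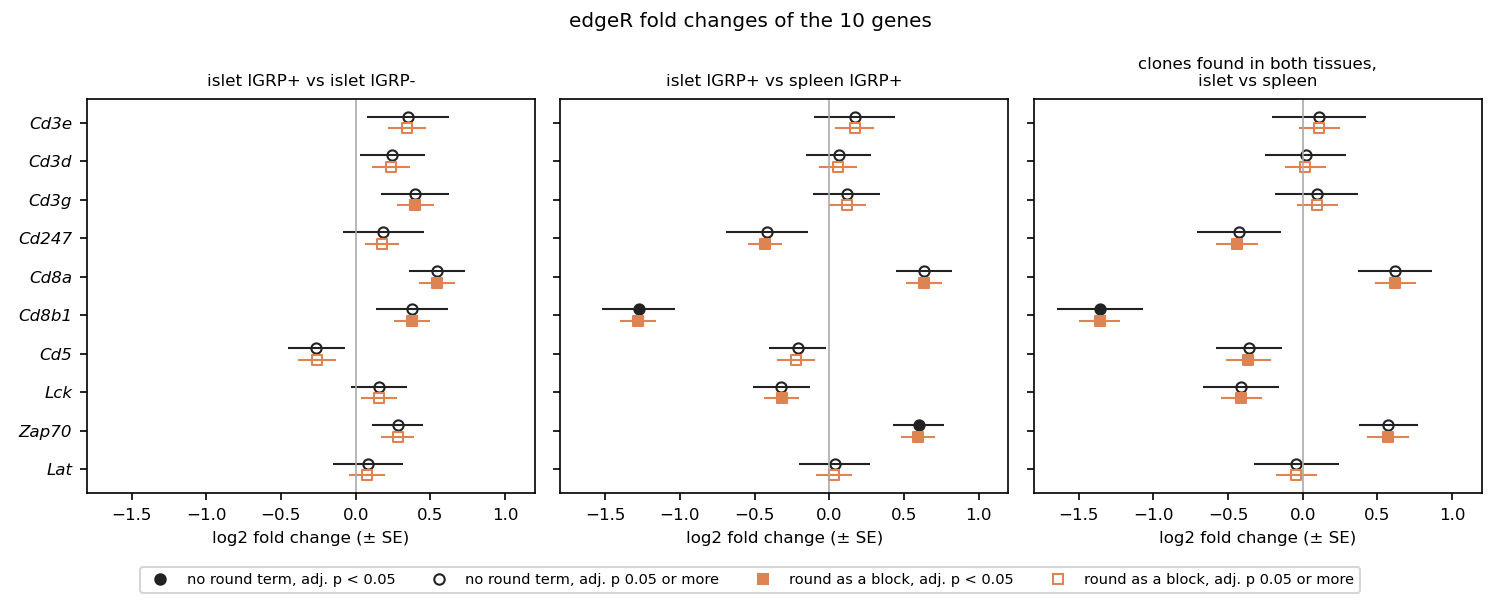
Fitted log2 fold changes (x axis, ± SE) of the 10 genes (y axis) for islet IGRP+ against islet IGRP- (left), islet IGRP+ against spleen IGRP+ (middle) and clones found in both tissues, islet against spleen (right). Circles are fits without a term for the round, squares fits with the round as a block, and filled symbols have an adjusted p under 0.05. The estimates barely move with the block, and its SEs are smaller. Cd8b1 is the most negative point in both comparisons with the spleen.

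The 3 CD3 genes lie side by side on chromosome 9 (GRCm38, Cd3g at chr9:44969572-44980431 and Cd3e at chr9:44998740-45009627 on the minus strand, Cd3d at chr9:44981786-44987339 between them on the plus strand), and all 3 were lower in islet IGRP- than in the tetramer-binding cells of either tissue. Cd3e was at 1443 and 1348 CPM in islet IGRP-, 1859 and 1691 in islet IGRP+, and 1757 and 1614 in spleen IGRP+ (rounds 1 and 2 in each case). Cd3d was at 849 and 927 CPM, 1055 and 1043 CPM, and 1054 and 1097 CPM in the same order. Cd3g was at 874 and 867 CPM, 1122 and 1179 CPM, and 1149 and 1109 CPM. For each of the 3 genes, both islet IGRP+ libraries lay above both islet IGRP- libraries and overlapped the range of the spleen libraries. The share of all genes whose groups lay apart in this way was not counted, so such gaps, here and below, only describe these libraries. The log2 fold change over islet IGRP- was 0.35 (SE 0.27) for Cd3e, 0.24 (SE 0.22) for Cd3d and 0.40 (SE 0.23) for Cd3g. With the round as a block, the adjusted p was 0.028 for Cd3g, 0.0588 for Cd3e and 0.175 for Cd3d. Against the spleen the 3 genes differed by 0.17, 0.06 and 0.12 on the log2 scale, less than an SE of 0.22 to 0.27, and the sign of Cd3d turned when library totals were used in place of TMM factors (-0.04).

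Cd247, which encodes the ζ chain with more ITAMs than any other subunit, was ordered differently. Its level was 182 and 147 CPM in islet IGRP-, 205 and 167 CPM in islet IGRP+, and 277 and 255 CPM in spleen IGRP+. The 2 islet groups overlapped, and both spleen libraries lay above all islet libraries. The log2 fold change of islet IGRP+ over the spleen was -0.42 (SE 0.27, adjusted p = 0.3), and with the round as a block -0.43 (SE 0.11, adjusted p = 0.00611). Within a library, the ratio of Cd247 UMIs to the summed Cd3e, Cd3d and Cd3g UMIs was 0.0574 and 0.0467 in islet IGRP-, 0.0508 and 0.0426 in islet IGRP+, and 0.0701 and 0.0667 in spleen IGRP+. Its log2 difference between islet IGRP+ and the spleen was -0.56 (-4.43 ± 0.18 against -3.87 ± 0.05, SD, n = 2 each; two-sided exact permutation p = 0.333). That is the smallest p that 2 libraries against 2 allow. Between the islet groups the log2 difference was -0.15 (exact permutation p = 0.667, n = 2 each), with -0.18 within round 1 and -0.13 within round 2. Exons of Cd247 share 3007 bases with Pou2f1 on the opposite strand and 206 bases with the processed transcript Gm16565 on the same strand. Cd3e shares 135 exon bases with the antisense gene Gm48719 on the opposite strand. Whether the counting used strand is not given in the sources used here.

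The coreceptor genes gave the widest contrast. Cd8b1 and Cd8a are neighbours on chromosome 6 (GRCm38, chr6:71322788-71337494 and chr6:71373427-71379173, both on the plus strand), and yet between islet IGRP+ and spleen IGRP+ cells they differed in opposite directions. Cd8b1 was at 359 and 308 CPM in islet IGRP-, 450 and 416 CPM in islet IGRP+, and 1120.2 and 1125 CPM in spleen IGRP+. Both spleen libraries stood far above the 4 islet libraries. The log2 fold change of islet IGRP+ over the spleen was -1.28 (SE 0.25, adjusted p = 0.0159), and with the block -1.28 (SE 0.12, adjusted p = 1.61e-06). Leaving out 1 library ended this call for islet IGRP+ of round 2 (-1.10, adjusted p = 0.0688), for the spleen of round 1 (-1.16, adjusted p = 0.0785) and for the spleen of round 2 (-1.40, adjusted p = 0.0586).

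Cd8a was at 593 CPM in both islet IGRP- libraries, at 794 and 945 CPM in islet IGRP+, and at 537 and 662 CPM in spleen IGRP+. Both islet IGRP+ libraries lay above all others, and islet IGRP- lay within the range of the spleen. The log2 fold change of islet IGRP+ was 0.63 over the spleen (SE 0.19, adjusted p = 0.0519) and 0.54 over islet IGRP- (SE 0.19, adjusted p = 0.221). With the round as a block the same differences had adjusted p-values of 6.53e-04 and 0.00477. Cd8b1 also was higher in islet IGRP+ than in islet IGRP-, with a log2 fold change of 0.38 (SE 0.24, adjusted p = 0.45; with the block SE 0.12, adjusted p = 0.029), so within the islets both chains were higher in the tetramer-binding cells.

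The balance of the chains was read within each library as the ratio of Cd8b1 to Cd8a UMIs, which does not depend on the library total. It was 0.606 and 0.519 in islet IGRP-, 0.566 and 0.44 in islet IGRP+, and 2.09 and 1.7 in spleen IGRP+. The ratio was thus below 1 in all 4 islet libraries and above 1 in both spleen libraries. These are ratios of UMI counts, in which each gene has its own capture rate, so only their differences between libraries can be read. The log2 ratio was -1.0 ± 0.26 in islet IGRP+ and 0.91 ± 0.21 in spleen IGRP+ (SD, n = 2 each), a difference of -1.92 (two-sided exact permutation p = 0.333, the smallest possible). Islet IGRP+ and islet IGRP- differed by -0.17 (exact permutation p = 0.667, n = 2 each), but within rounds islet IGRP+ was the lower both times, by -0.10 in round 1 and -0.24 in round 2. Against the spleen the differences within rounds were -1.88 and -1.95.

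Single cells were compared next. In cells thinned to 1000 UMIs, 24.4% and 27.2% of islet IGRP- cells, 31.2% and 35% of islet IGRP+ cells and 14.4% and 15.3% of spleen IGRP+ cells had a Cd8a UMI and no Cd8b1 UMI. The reverse, a Cd8b1 UMI and no Cd8a UMI, was seen in 15.9% and 13.8%, in 14.5% and 13.4%, and in 37.7% and 34.5% of cells. Both transcripts were found in 12.2% and 11.2% of islet IGRP- cells, 19.4% and 20% of islet IGRP+ cells and 26.8% and 32.1% of spleen cells. No UMI of either chain was seen in 47.4% and 47.7%, in 34.8% and 31.6%, and in 21.1% and 18.2% of thinned cells. All of these cells had been sorted as CD8+, so a cell without a UMI at this depth is not a cell without CD8. For Cd3e and Cd8b1, cells marked as other types gave no level near 0 to serve as a background. The 24 islet cells with exocrine or endocrine markers still had a Cd3e UMI in 58.3% of cells and a Cd8b1 UMI in 20.8%. The islet cells without such markers stood at 72.7% and 27.4%, all thinned to 1000 UMIs. The 16 islet cells with B-cell or myeloid markers had a Cd3e UMI in 56.3% of cells (95% exact interval 29.9% to 80.2%) and a Cd8b1 UMI in 31.3% (11% to 58.7%), so those shares too were not below the T cells' beyond counting error. Their median depth was 5794.5 UMIs, against 3855.5 in the exocrine or endocrine cells and 3883 in the others. Some of the sparser genes came nearer to 0. Cd247 was seen in 4.17% of the exocrine or endocrine cells and 0% of the B-cell or myeloid cells (0% to 20.6%), beside 14.9% of the others. The same shares were 4.17%, 18.8% and 15.7% for Zap70, and 12.5%, 6.25% and 17.4% for Cd5.

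**Figure D3:**
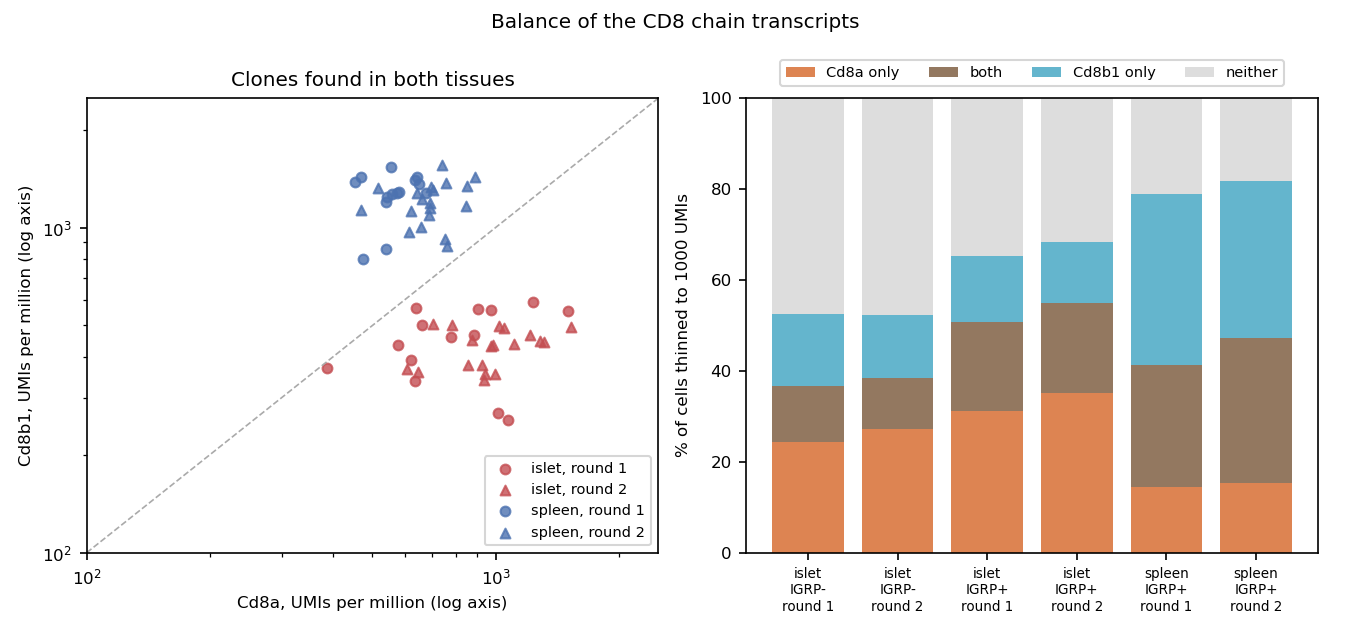
Left, Cd8b1 level (y axis) against Cd8a level (x axis) in each of the 33 clones with at least 10 cells in both tissues of a round, both in CPM on log axes, with islet values in red, spleen values in blue, and equal levels on the dashed line. Right, share of thinned cells (y axis, %) in each library with UMIs of Cd8a only, of both chains, of Cd8b1 only or of neither. All islet points lie below the line and all spleen points above it, and Cd8b1 only is seen in 34.5% and 37.7% of spleen cells against 13.4% to 15.9% of islet cells.

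Lck, the kinase that starts the cascade from the CD8 tail, was at 602 and 616 CPM in islet IGRP-, 638 and 724 CPM in islet IGRP+, and 857 and 957 CPM in spleen IGRP+. The 3 groups did not overlap. The step to the spleen was a log2 fold change of -0.32 for islet IGRP+ (SE 0.19, adjusted p = 0.255; with the block SE 0.12, adjusted p = 0.0363). The step between the islet groups, 0.15 (SE 0.19, adjusted p = 0.703), was smaller than its error. Zap70, the kinase that acts next, had the opposite order between the tissues. It was at 144 and 187 CPM in islet IGRP-, 170 and 235 CPM in islet IGRP+, and 124 and 161 CPM in spleen IGRP+. Round 2 was above round 1 in each group, and within each round islet IGRP+ was the highest. The log2 fold change of islet IGRP+ over the spleen was 0.60 (SE 0.17, adjusted p = 0.05 to 2 digits and just under the threshold; with the block SE 0.11, adjusted p = 6.27e-04). The call without the block was lost when any one of the 6 libraries was left out (adjusted p 0.0835 to 0.221) and with library totals in place of TMM factors (0.51, adjusted p = 0.194). Over islet IGRP- it was 0.28 (SE 0.17, adjusted p = 0.43; with the block 0.0703).

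Lat, the adaptor that ZAP-70 phosphorylates, was the steadiest of the signaling genes, at 716 and 665 CPM in islet IGRP-, 756 and 703 CPM in islet IGRP+, and 767 and 756 CPM in spleen IGRP+. Its log2 fold changes of 0.08 over islet IGRP- and 0.04 over the spleen (SE 0.24 each) were not called with or without the block, and the second turned to -0.06 with library totals. Cd5, whose level is known to follow the strength of receptor signals, was at 187 and 258 CPM in islet IGRP-, 154 and 220 CPM in islet IGRP+, and 213 and 244 CPM in spleen IGRP+. The groups overlapped because round 2 was higher than round 1 in each, but within either round islet IGRP+ was the lowest. Its log2 fold change was -0.26 against islet IGRP- (SE 0.19, adjusted p = 0.507; with the block 0.133) and -0.21 against the spleen (SE 0.19, adjusted p = 0.453; with the block 0.158).

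Clones found in both tissues put the comparison of islet and spleen on cells with the same receptor. A clone was a set of cells of 1 round with 1 productive α and 1 productive β chain of identical CDR3 nucleotide sequence. V and J genes were not part of the definition. With at least 2 cells in each tissue, 23 clones of round 1 (623 islet and 1340 spleen cells) and 31 of round 2 (1130 and 1396 cells) were shared. They held 92.6% and 94.9% of the islet IGRP+ cells with both chains, and 80.7% and 83.7% of such spleen IGRP+ cells. In the 44 clone entries with at least 5 cells in each tissue, 44 used TRAV16N and 36 TRBV13-3 in the contig calls of 1 islet cell per clone. The CDR3 sequences of the 3 largest shared clones of each round are printed because the clone-level values below refer to them. Also printed are the β chains of the 3 receptors, counted by nucleotide sequence, found in both rounds among these 44 entries, each with the common α chain. All sequences are 5′ to 3′ as assembled in the contigs, and capitals mark the bases after the start shared by all printed chains of that kind (11 bases in α, 13 in β).
Clone 1 of round 1, α, TRAJ49: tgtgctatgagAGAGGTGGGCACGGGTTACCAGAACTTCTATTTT
Clone 1 of round 1, β, TRBJ2-4: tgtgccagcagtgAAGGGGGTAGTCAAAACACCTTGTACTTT
Clones 2 of round 1 and 1, 2 and 3 of round 2, common α, TRAJ42: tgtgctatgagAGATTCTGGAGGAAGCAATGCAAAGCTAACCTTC
Clones 2 of round 1 and 17 of round 2, β, TRBJ2-4, with the common α: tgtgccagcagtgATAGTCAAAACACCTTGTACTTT
Clone 3 of round 1, α, TRAJ42: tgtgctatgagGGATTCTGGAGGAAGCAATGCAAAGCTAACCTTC
Clone 3 of round 1, β, TRBJ2-4 (with the common α also in clones 15 of round 1 and 4 of round 2): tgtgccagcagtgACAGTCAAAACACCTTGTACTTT
Clone 1 of round 2, β, TRBJ2-2: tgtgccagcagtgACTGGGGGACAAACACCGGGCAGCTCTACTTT
Clone 2 of round 2, β, TRBJ2-4: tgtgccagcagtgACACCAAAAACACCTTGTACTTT
Clone 3 of round 2, β, TRBJ2-7: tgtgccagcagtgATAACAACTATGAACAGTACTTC
Clones 18 of round 1 and 19 of round 2, β, TRBJ2-7, with the common α: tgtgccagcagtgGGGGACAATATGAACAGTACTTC

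When the cells of the shared clones were summed per library, Cd8b1 was the only 1 of the 10 genes called without the block, with a log2 fold change of islet over spleen of -1.36 (SE 0.29, adjusted p = 0.0314). Of the 9938 genes tested, 8.68% were called higher and 7.59% lower. No gene of the 10 was called higher by edgeR, although Cd8a (0.62, SE 0.25) and Zap70 (0.57, SE 0.20) had unadjusted p-values of 0.0473 and 0.0279, and DESeq2 called 2 of the 10, Cd8b1 and Cd8a, against 15.7% of all genes. With the round as a block 2 were called higher and 4 lower, against 24.9% and 24% of all genes. The higher genes were Cd8a (0.62, SE 0.14, adjusted p = 8.26e-04) and Zap70 (0.57, SE 0.14, adjusted p = 0.00188). The lower genes were Cd8b1 (-1.36, SE 0.14, adjusted p = 5.1e-08), Cd247 (-0.44, SE 0.14, adjusted p = 0.0125), Lck (-0.41, SE 0.14, adjusted p = 0.0177) and Cd5 (-0.36, SE 0.15, adjusted p = 0.0486). Cd3e, Cd3d, Cd3g and Lat differed by 0.11, 0.02, 0.09 and -0.04 with SEs of 0.27 to 0.31, and library totals in place of TMM factors turned the sign of the 3 CD3 genes (-0.01, -0.11 and -0.02). The call of Cd8b1 without the block was lost when islet IGRP+ of round 2 (-1.18, adjusted p = 0.0933), the spleen of round 1 (-1.18, adjusted p = 0.213) or the spleen of round 2 (-1.49, adjusted p = 0.0781) was left out.

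Clone by clone, 33 had at least 10 cells in each tissue of their round, 14 in round 1 and 19 in round 2, and the difference was taken as log2 of islet minus log2 of spleen CPM after adding 20 CPM. The clones of a round share their libraries and are not replicates of a tissue, so these counts describe the clones and were not tested. Cd8b1 was lower in the islets in 33 of 33 clones, with a median difference of -1.50 and a range of -2.12 to -0.79. Its islet levels, 256 to 589 CPM, did not reach the lowest spleen level of any clone, 801 CPM. Cd8a was higher in the islets in 28 of 33 clones, with a median of 0.50 and a range of -0.69 to 1.2, and the levels of the tissues overlapped. The log2 ratio of Cd8b1 to Cd8a separated the tissues in every clone: it ran from -2.06 to -0.06 in the islets and from 0.21 to 1.61 in the spleen, with medians of -1.07 and 0.91.

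The signaling genes were compared in the same way. Lck was lower in the islets in 33 of 33 clones (median -0.60, range -1.07 to -0.12) and Cd247 in 29 of 33 (median -0.55, range -1.58 to 0.39). Zap70 was higher in the islets in 26 of 33 (median 0.33, range -0.45 to 2.18). Cd5 was higher in 7 of 33 (median -0.24) and Lat in 2 of 33 (median -0.21). Cd3e was higher in 18, Cd3g in 17 and Cd3d in 12 of 33, with medians of 0.01, 0.02 and -0.16. These per-clone values use library totals, whose median over all genes sat at -0.14 for islet over spleen in the clone sums, against -0.02 with TMM factors. The shift is close to the median of Lat and small beside those of Cd8b1, Lck and Cd247.

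**Figure D4:**
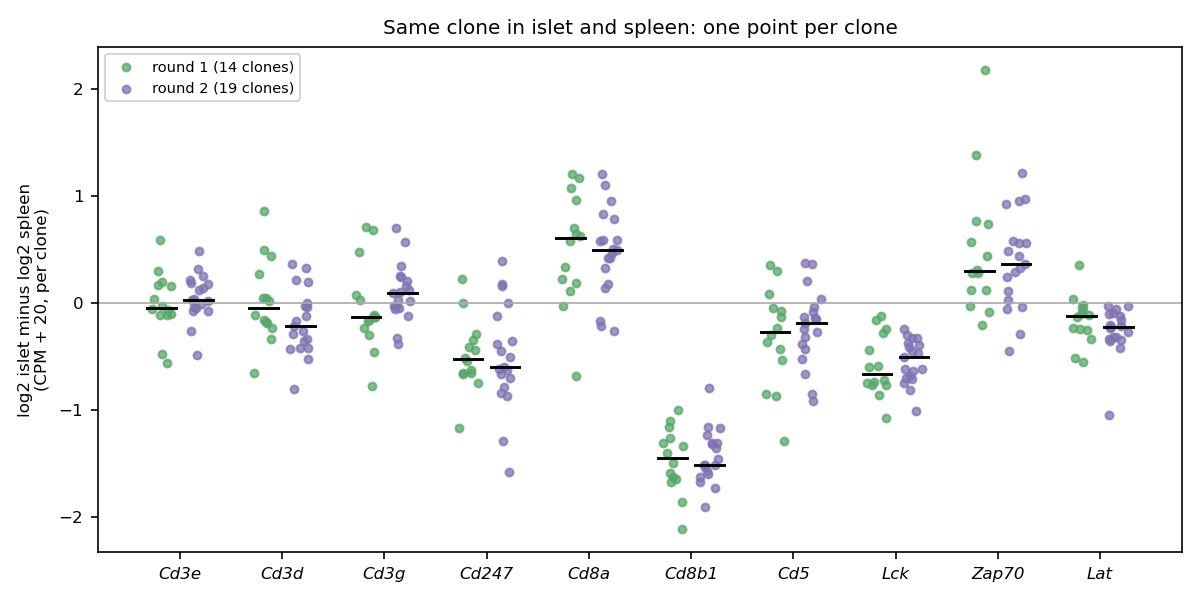
Difference between islet and spleen within each clone (y axis, log2 islet minus log2 spleen of CPM + 20) for the 10 genes (x axis). Each point is 1 clone with at least 10 cells in each tissue, green for the 14 of round 1 and purple for the 19 of round 2, and black bars are the medians of a round. All 33 points lie below 0 for Cd8b1 and for Lck, 28 above 0 for Cd8a and 26 above 0 for Zap70.

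In the largest clone of round 1 (clone 1, 86 islet and 265 spleen cells), Cd8b1 was at 562 CPM in the islets (95% exact Poisson interval 496 to 634) and 1285 CPM in the spleen (1204 to 1370). Cd8a in the same cells was at 908 CPM (823 to 999) and 582 CPM (528 to 640). The largest clone of round 2 (clone 1, 193 islet and 323 spleen cells) had 432 CPM of Cd8b1 in the islets (395 to 473) and 1278 CPM in the spleen (1206 to 1353), and 977 CPM (920 to 1037) and 642 CPM (592 to 696) of Cd8a. In both clones the intervals, which cover counting error only, were apart for either chain. Clone 3 of round 1 was an exception for Cd8a, with 620 CPM (555 to 690) in the islets and 573 CPM (515 to 637) in the spleen. Its Cd8b1 was at 392 CPM (341 to 449) in the islets and 1277 CPM (1188 to 1370) in the spleen. The α and β CDR3 of this clone differ from those of clone 2 of round 1 in nucleotides but not in amino acids. In the other 3 of the 6 largest clones Cd8b1 was at 377 to 461 CPM in the islets and at 966 to 1433 CPM in the spleen. Lck was at 864 to 1044 CPM in the spleen and at 603 to 778 CPM in the islets of the 6 clones, lower in the islets in each, with clone 2 of round 2 the closest pair (864 CPM, 781 to 955, and 700 CPM, 647 to 756).

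Among the clones with at least 5 cells in each tissue of their round, 3 receptors, counted by CDR3 nucleotide sequence, occurred in both pools of mice. They give a comparison of the same αβ nucleotide sequence in separate animals. The receptors of clone 2 of round 1 and clone 4 of round 2 differ in β nucleotides only and encode the same CDR3 amino acids. Receptors shared between the pools at lower cell numbers are not counted here. The receptor of clone 2 of round 1 (116 islet and 232 spleen cells) had Cd8b1 at 461 CPM in the islets and 1433 CPM in the spleen in round 1, and at 341 and 982 CPM in round 2 (31 and 6 cells). The receptor of clone 4 of round 2 had 452 and 1331 CPM (82 and 50 cells) there, and 195 and 1322 CPM in round 1 (6 and 27 cells). The receptor of clone 18 of round 1 had 589 and 1199 CPM (10 and 12 cells) there, and 271 and 1255 CPM in round 2 (9 and 23 cells). Cd8b1 was lower in the islets in all 6 of these entries, and Cd8a was higher in the islets in all 6. With 6 to 12 cells on a side the intervals were wide, for example 78.2 to 401 CPM for the islet value of 195 CPM.

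Cells with a UMI of Pdcd1, which encodes the inhibitory receptor PD-1 and is induced by receptor signals, differed in number between the groups and were compared with the other cells of their own library. They made up 37.3% and 33.2% of islet IGRP- cells, 70.1% and 73.1% of islet IGRP+ cells and 10.4% and 11.9% of spleen IGRP+ cells. They were also the deeper cells, with a median of 4390 UMIs against 3616 in islet IGRP- of round 1, for example. Cd8a was higher in cells with a Pdcd1 UMI in all 6 libraries, by 0.83 to 0.85 on the log2 scale in islet IGRP-, by 0.29 to 0.30 in islet IGRP+ and by 0.09 to 0.11 in the spleen. Cd3e, Cd3d, Cd3g, Cd8b1 and Lck were likewise higher in all 6 libraries, with the widest differences in islet IGRP- (for Cd3g 0.50 to 0.58). How many of all genes were higher in such cells in every library was not counted. Zap70 was higher by 0.53 to 0.57 in islet IGRP- and Cd5 by 0.49 to 0.60, while Cd5 was lower in both islet IGRP+ libraries (-0.19 and -0.05). Cd247 was higher in 3 of 6 libraries and lower in the others. The ratio of Cd8b1 to Cd8a lay below 1 in the islets and above 1 in the spleen in either class of cells: in cells with a Pdcd1 UMI it was 0.435 to 0.555 in the islets and 1.68 to 2.2 in the spleen, and in cells without one 0.461 to 0.685 and 1.7 to 2.07.

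When only cells with a Pdcd1 UMI were compared, the log2 fold change of Cd8a between islet IGRP+ and islet IGRP- was 0.25 (SE 0.20, adjusted p = 0.828), against 0.54 in all cells, and that of Zap70 was 0.10 against 0.28. In that fit edgeR called 0 of all 10652 genes tested, and of the 10 only Cd5 (-0.50) had an unadjusted p under 0.05 (0.0438). Between islet IGRP+ and the spleen, Cd8a (0.65, SE 0.20, adjusted p = 0.0791), Cd8b1 (-1.32, SE 0.26, adjusted p = 0.0223) and Zap70 (0.61, SE 0.20, adjusted p = 0.081) kept about the size they had in all cells. The 7 markers of resting T cells moved with the groups as well, at a summed 1706 and 2372 CPM in islet IGRP-, 332 and 622 CPM in islet IGRP+ and 1964 and 2705 CPM in spleen IGRP+. Without the block, edgeR called 4 of the 7 lower in islet IGRP+ than in islet IGRP- and 6 of 7 lower than in the spleen, and in the shared clones 6 were lower and 1, Ccr7, named after its values were seen, higher. The part of this difference, and of the depth of cells with a Pdcd1 UMI, in the levels of the 10 genes was not tested.

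**Figure D5:**
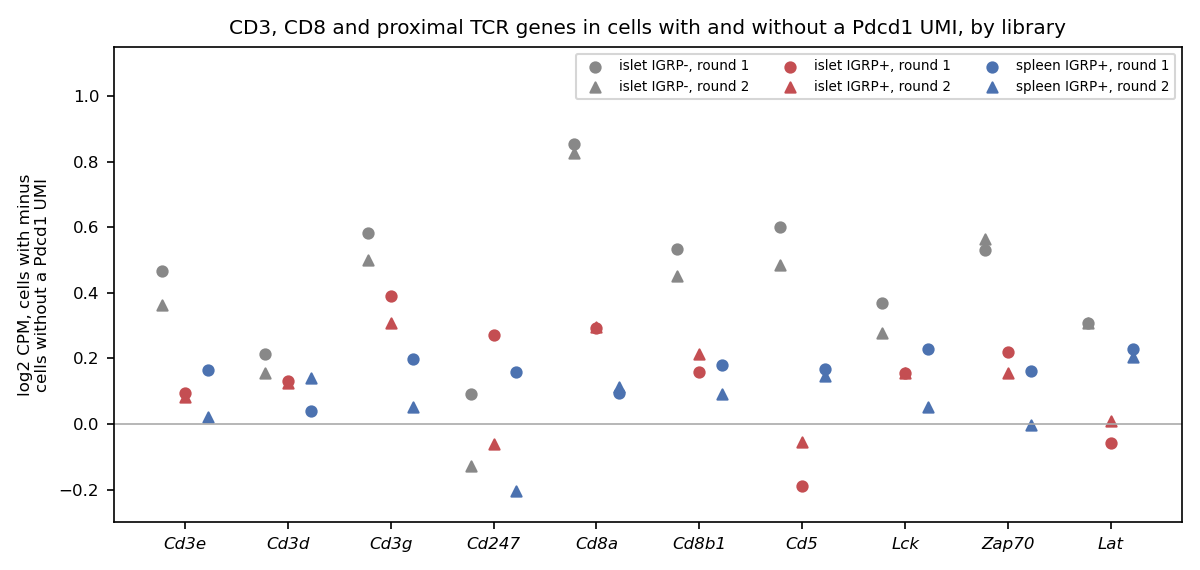
Difference in level between cells with and without a Pdcd1 UMI (y axis, log2 CPM) for the 10 genes (x axis) within each library. Grey is islet IGRP-, red islet IGRP+ and blue spleen IGRP+, circles are round 1 and triangles round 2. The islet IGRP- libraries give the largest values for Cd8a, 0.83 and 0.85, and the 2 spleen libraries lie at 0.09 and 0.11.

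Other components of the pathway were read from fixed lists around the 10 genes. The shares of all genes called without the block stand beside the counts of every list. They were 13.7% higher and 12.9% lower against the spleen, 8.68% and 7.59% in the shared clones, and 0.151% and 1.04% against islet IGRP-. Of 19 proximal kinases and adaptors, edgeR without the block called 3 higher and 7 lower in islet IGRP+ than in the spleen, with a list median of -0.49 beside -0.03 over all genes. Sh2d2a, which encodes an adaptor that binds Lck, was at 1135 and 1407 CPM in islet IGRP+ and 148 and 186 CPM in the spleen (log2 fold change 3.02, SE 0.20, adjusted p = 0.00145). Prkcq, the kinase PKCθ downstream of the receptor, was at 54.9 and 70.7 CPM against 211 and 242 CPM (-1.76, SE 0.15, adjusted p = 0.00219). Trat1, a receptor-associated adaptor, and Txk, a kinase of the Tec family, were lower by -1.34 and -1.18 (adjusted p = 0.00996 and 0.0185). In the shared clones Sh2d2a (2.87), Prkcq (-1.79), Trat1 (-1.36) and Txk (-1.04) were called in the same directions, and 2 of the 19 were higher and 5 lower. Against islet IGRP- only Trat1 was called, at 6.12 and 8.65 CPM in islet IGRP+ and 26.6 and 22.3 CPM in islet IGRP- (-1.74, SE 0.22, adjusted p = 0.0318).

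Of 15 inhibitors of proximal signaling, 3 were higher and 5 lower in islet IGRP+ than in the spleen. Cblb, a ubiquitin ligase that restrains receptor signals, was at 237 and 368 CPM against 95.2 and 102 CPM (1.69, SE 0.20, adjusted p = 0.00466), and Sla, an adaptor that lowers receptor levels, was higher by 1.07 (adjusted p = 0.0217). Sit1 and Pag1, membrane adaptors that recruit negative regulators, were lower by -1.70 and -1.35 (adjusted p = 0.00384 and 0.019). In the shared clones 1 of the 15 was higher (Cblb, 1.66) and 3 lower, Sit1 (-1.83), Lax1 (-1.02) and Ubash3a (-0.83). Ubash3b, a phosphatase that acts on ZAP-70, was the 1 gene of the list called against islet IGRP-, at 83.7 and 97.2 CPM in islet IGRP+ and 35.8 and 34.8 CPM in islet IGRP- (1.35, SE 0.15, adjusted p = 0.0259). With the block the counts of this list against islet IGRP- were 4 higher and 2 lower, and those of the kinases and adaptors 2 higher and 5 lower. Of all genes, 14.4% were called higher and 16.1% lower in that fit.

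Of 10 response genes, which receptor signals induce, 5 were called higher in islet IGRP+ than in the spleen and 2 lower, Cd69 (-1.90) and Myc (-1.73), both named after their values were seen. Tnfrsf9, the costimulatory receptor 4-1BB, was at 287 and 344 CPM against 9.78 and 6.95 CPM (5.29, SE 0.29, adjusted p = 0.0012), Nr4a3 at 116 and 251 CPM against 19.4 and 13 CPM (3.52), Nr4a1 at 131 and 229 CPM against 43.2 and 14.9 CPM (2.63) and Nr4a2 at 566 and 775 CPM against 171 and 173 CPM (2.04). The 9 of these genes tested in the shared clones gave 5 higher and 2 lower, with Tnfrsf9 at 5.49, Nr4a3 at 3.53, Nr4a1 at 2.78 and Egr2 at 2.09. Between the islet groups none of the 10 was called by edgeR without the block, where 4 had an unadjusted p under 0.05. With the block 2 were higher and 3 lower, against 14.4% and 16.1% of all genes. Among the receptor constant genes Trbc1 was higher in islet IGRP+ than in the spleen, at 242 and 259 CPM against 113 and 83.5 CPM (1.42, SE 0.26, adjusted p = 0.0131), and by 1.51 in the shared clones, while Trac and Trbc2 were not called without the block. Trbc1 and Trbc2 can share reads between them, so the single values of these genes are uncertain. Of the adaptors of other immune receptors, Hcst (DAP10) was at 258 and 246 CPM in islet IGRP+ against 591 and 569.5 CPM in the spleen (-1.11, SE 0.24, adjusted p = 0.0223), and by -1.29 in the shared clones. Fcer1g, the Fc receptor γ chain, had 0 UMIs in both spleen libraries and 3 and 8 UMIs in the islet IGRP+ libraries, for which no fold is given.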

How the data were processed

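CD8 T cells were measured by 10x 5′ scRNA-seq and scTCR-seq in 6 libraries each. The authors deposited unnormalized UMI counts for every gene and barcode, produced by Cell Ranger on mm10 (version 5.0.1 in the matrix headers, a later one in the methods). Cells with under 5% mitochondrial UMIs and 200 to 3500 genes (islet) or 200 to 2000 genes (spleen) were kept, and the deposited contig tables gave the clones. Ambient RNA was not removed and no doublet caller was run, but cells carrying several productive β chains were left out in one alternative. Counts summed per library were tested in R 4.3.3 with edgeR 4.0.16 (TMM, filterByExpr, quasi-likelihood F-test, all 6 libraries in 1 fit for the groups, no term for the round, limma 3.58.1) and, as an alternative, with DESeq2 1.42.0. Ratios were compared by exact permutation over libraries (Python 3.11.15, numpy 2.4.6, pandas 2.3.3, scipy 1.17.1, matplotlib 3.10.9). The code was tested on simulated data. Where these held a round difference that was the same in all 3 groups, the fit without the block recovered 0% of 200 genes changed 2-fold. The fit with the block recovered 98.5% to 100%. In the data the round differences correlated between groups at 0.816 to 0.855, and the fit without the block called 26.6% of genes against the spleen. The simulation therefore does not give the share of genes that either fit missed here. A missing call without the block does not show that a gene is equal between groups. The edgeR p-values rest on the spread of libraries within groups, estimated over all groups of a fit and with information shared over genes. With the block they rest on the spread left after the round is taken out. Each group has 2 libraries, each from a pool of 10 mice.

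The round number pairs the libraries, since each round was 1 pool of mice. The paper's methods also give a different sequencing kit and read length for each round, so the mice and the sequencing cannot be told apart in a round difference. Over 7395 genes the round differences of any 2 groups correlated at 0.816 to 0.855. The fit without the round had been set as the main one, so the fit with the round as a block stands as the alternative and is printed beside each result it changes.

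The 10 genes, the pathway and marker lists and the tests were chosen with earlier results of these data known. From each other pathway list the text names, per comparison, at most 4 genes, taken by absolute log2 change from those called (Cd69, Myc and Ccr7 are named beside this rule), and from the clones the 3 largest of each round. The receptors found in both rounds were chosen after their values were seen. Alternatives covered normalization, filters, cell selection, thinning to 1000 UMIs, clone size and left-out libraries. Library totals without TMM factors were added after the data were seen. Gene positions and exon overlaps came from GENCODE on GRCm38. Intervals cover counting error only.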

Additional observations from a re-analysis of the deposited data

How the results depend on the processing

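Over 47 results, 501 alternatives that did not leave out a library gave the same direction and call in 432 cases, a gained call in 37, a lost call in 12, another sign in 18 and a moved value in 2, and 192 values without 1 library gave 152 with the same direction and call, 21 lost calls and 19 other signs. In islet IGRP+ against islet IGRP- none of the 10 genes was called, against 1 with DESeq2, 3 with the replicate block and 4 with the block and library totals, where the share of all genes called rose from 1.19% to 5.09%, 30.5% and 27.4%, and leaving out a library gave 0. Against the spleen 2 were called, against 5 with the replicate block, 6 with the block and library totals (26.6% of all genes, and 55.1% and 54%), and 1 each with library totals, every counted gene kept, no cap on genes per cell, cells with several β chains left out, cells with a Pdcd1 UMI alone and the 4 libraries alone, where 13.7% to 30.4% of all genes were called, and 0 to 1 without a library. In shared clones 1 was called, against 2 with DESeq2, 6 with the replicate block with or without library totals (16.3% of all genes, and 15.7%, 48.9% and 49.6%), and 0 to 1 without a library. The rounds pair the libraries, and the block changed the calls of Cd3g, Cd8a and Cd8b1 in the first comparison, Cd247, Cd8a and Lck in the second and these and Zap70 and Cd5 in the third, and no other call of the 10.

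The signs that turned were the following, and the cause was not tested. Against islet IGRP-, Cd5 was at 0.0479 with 2000 genes as the limit in both tissues and Lat at -0.02 in cells with a Pdcd1 UMI, where the Cd247 ratio differed by 0.0579. Against the spleen, Cd3d was at -0.0357 and -0.0351 with library totals without and with the block, and at -0.0094 without an upper limit on genes. Lat there was at -0.0769 after thinning, -0.0624 and -0.0635 with library totals without and with the block, and -0.12 in cells with a Pdcd1 UMI. In shared clones library totals without and with the block gave -0.0118 and -0.01 for Cd3e, -0.1051 and -0.105 for Cd3d, and -0.024 and -0.023 for Cd3g, and Cd3d was at -0.054 without an upper limit on genes. Library totals moved the median of all genes from -0.03 to -0.12 against the spleen and from -0.02 to -0.14 in shared clones. With at least 20 cells per tissue, 35.3% of clones had more Cd3e in the islets, 94.1% more Zap70 and 0% more Lat. Leaving out 1 library gave, against islet IGRP-, -0.10 to 0.43 for Cd247, -0.0908 to 0.25 for Lat and -0.35 to 0.0149 for the Cd8b1 to Cd8a ratio. Against the spleen it gave -0.0428 to 0.36 for Cd3e, -0.083 to 0.19 for Cd3d, -0.03 to 0.26 for Cd3g and -0.16 to 0.21 for Lat. In shared clones it gave -0.0792 to 0.34 for Cd3e, -0.10 to 0.15 for Cd3d, -0.0581 to 0.28 for Cd3g and -0.21 to 0.16 for Lat. With 2 libraries per group, a gene that was not called is not shown to be equal between groups.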
